A study of Sus scrofa with 16 samples.

Results

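The 9 genes described here carry the reception of Hedgehog signals and their first transcriptional output: the receptor gene PTCH1, the ligand-binding gene HHIP, the signal transducer gene SMO, the transcription factor genes GLI1, GLI2 and GLI3, and the co-receptor genes GAS1, BOC and CDON. They were taken by gene symbol from a table of 28232 genes, each symbol was found once, and all 9 were among the 18528 genes that passed the filter on low counts and were tested. The cells were porcine embryonic stem cells (pESCs) of 1 line from an in vitro fertilised embryo (IVF_1_ pESC_FIW, here the IVF line) and 1 line from a parthenogenetically activated embryo (PA_3_ pESC_FIW, here the PA line). Poly-A RNA of each line was sequenced at days 0, 16, 28 and 45 of differentiation into midbrain dopaminergic neurons in monolayer, with 2 libraries in each of the 8 groups and 16 libraries in all. Both lines received the same agents. The SMAD inhibitors SB431542 and Noggin, recombinant SHH protein and the GSK3 inhibitor CHIR99021 were given from day 0 to day 9, and the growth factor FGF8 followed until day 16. BDNF with ascorbic acid was present after day 11, and the neurotrophic factor GDNF, the cAMP analogue dibutyryl-cAMP and the Notch inhibitor DAPT after day 16. Added SHH thus ended at day 9, before the day 16 libraries were made. There was no arm without SHH, so the effect of the protein, the other agents and time in culture cannot be told apart. Each embryo origin was represented by 1 line, so origin and line cannot be told apart either. The series calls the 2 libraries of a group biological duplicates without saying whether they came from separate cultures. The p-values thus measure the spread between such libraries, pooled over the 8 groups.

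Hedgehog ligands such as SHH are secreted proteins that bind PTCH1 at the cell surface. Without ligand, PTCH1 holds SMO inactive and GLI2 and GLI3 proteins are cut or retained as repressors. With ligand, SMO enters the primary cilium, full-length GLI proteins act as activators, and the genes PTCH1, HHIP and GLI1 are themselves induced in most tissues, the first 2 of them feeding back to limit the signal. In the ventral neural tube of mouse and chick this pathway sets up the floor plate, from which midbrain dopaminergic neurons arise.

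The libraries held 39247693 to 52165867 counts over 17727 to 19702 genes with a count, and replicates correlated at 0.9834 to 0.9984 (Pearson's r of log2(CPM+1) across genes), lowest for the PA line at day 45. Levels are given as CPM, counts scaled to TMM-adjusted library size, which compare 1 gene between libraries, or as TPM, which are also scaled to length and so compare genes. The labels were checked against markers: 4 pluripotency markers summed to 1370 to 1580 CPM at day 0 and to 0.06 to 8.70 CPM later, and the dopaminergic enzyme gene TH was at 0 at day 0, at 4.19 to 16.3 CPM at day 16 and at 24.1 to 77.3 CPM at days 28 and 45. Other genes of these neurons went both ways. SLC6A3 (the dopamine transporter) was higher at day 0 (2.01 to 4.80 CPM) than in any later group (0.14 to 1.99 CPM). PITX3 did not exceed 2.32 CPM and EN1 did not exceed 2.08 CPM. Group means of DDC were 0.132 (IVF) and 0.366 CPM (PA) at day 0 and 40.4 to 103 CPM at days 28 and 45. On the same days those of NR4A2 were 10.7 and 6.22 CPM, then 39.7 to 60.8 CPM. Those of LMX1B were 1.49 and 3.31 CPM, then 8.32 to 24.4 CPM. Summed over 5 markers of dividing cells, the level was 2270 to 2400 CPM at day 0, 1810 to 2290 at day 16, 214 to 336 at day 28 and 106 to 353 at day 45. The corresponding sums of 5 fibroblast markers were 66.2 to 84.8, 68.6 to 94.0, 376 to 655 and 484 to 1240 CPM. These lists move with the days over which the Hedgehog genes are compared and their part in the results was not tested. In bulk RNA, fewer cells of a type and less RNA per cell cannot be told apart.

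A call needed both a Benjamini-Hochberg adjusted p below 0.05 over all tested genes and a difference of 2-fold or more. Between day 0 and day 16, 5 of the 9 Hedgehog genes were called in the IVF line, where 34.2% of all tested genes were, with 4 of them lower against 14% of all genes and 1 higher against 20.2%. In the PA line 5 were called against 32.4%, with 3 lower against 14.4% and 2 higher against 18%. From day 16 to day 28 all 9 were called in the PA line (34.5% of all genes), 8 of them lower (16.2%), and 4 in the IVF line (21.7%). By limma on TPM the PA calls of GLI1 (-0.7), GLI3 (-0.63), SMO (-0.75), GAS1 (-0.97) and BOC (-0.94) were lost. On that scale the median of all genes over this PA step moved up by 0.335. From day 28 to day 45, 5 were called in the PA line (19.2%) and 0 in the IVF line (16.7%), where HHIP, BOC and PTCH1 had an adjusted p below 0.05 in edgeR but missed the 2-fold minimum, as the only 3 with an unadjusted p below 0.05. In this IVF step DESeq2 also called 0 at an adjusted p, GAS1 was called by limma on TPM and by the study's criterion in DESeq2, and HHIP and GAS1 were each called without 1 library, as given for these genes. Over the whole course, day 45 differed from day 0 for all 9 genes in the IVF line (49%), 6 of them lower (21.5%), and for 8 in the PA line (47.3%), 6 of them lower (20.7%). The median log2 fold change of the 9 from day 16 to day 28 was -1.36 in PA and 0.05 in IVF, beside -0.01 and 0 over all genes. Over this step 3 neuron markers summed to 933 to 940 and then 3580 to 3620 CPM in PA, and to 1690 to 1750 and then 1570 to 2120 CPM in IVF. The sums of 6 neural progenitor markers went from 913 to 920 to 396 to 426 CPM in PA and from 1000 to 1080 to 681 to 808 CPM in IVF. All 3 neuron markers were called higher in the difference of the steps between the lines, with a median of 1.83 beside -0.03 over all genes. Of the 6 progenitor markers, 5 fell in PA and 1 in IVF. In the difference of the steps 1 of them was called higher, 1 lower and 4 were not called. No marker of either list was at 0 in both libraries of these groups, and their part in the changes of the Hedgehog genes was not tested.

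**Figure D1:**
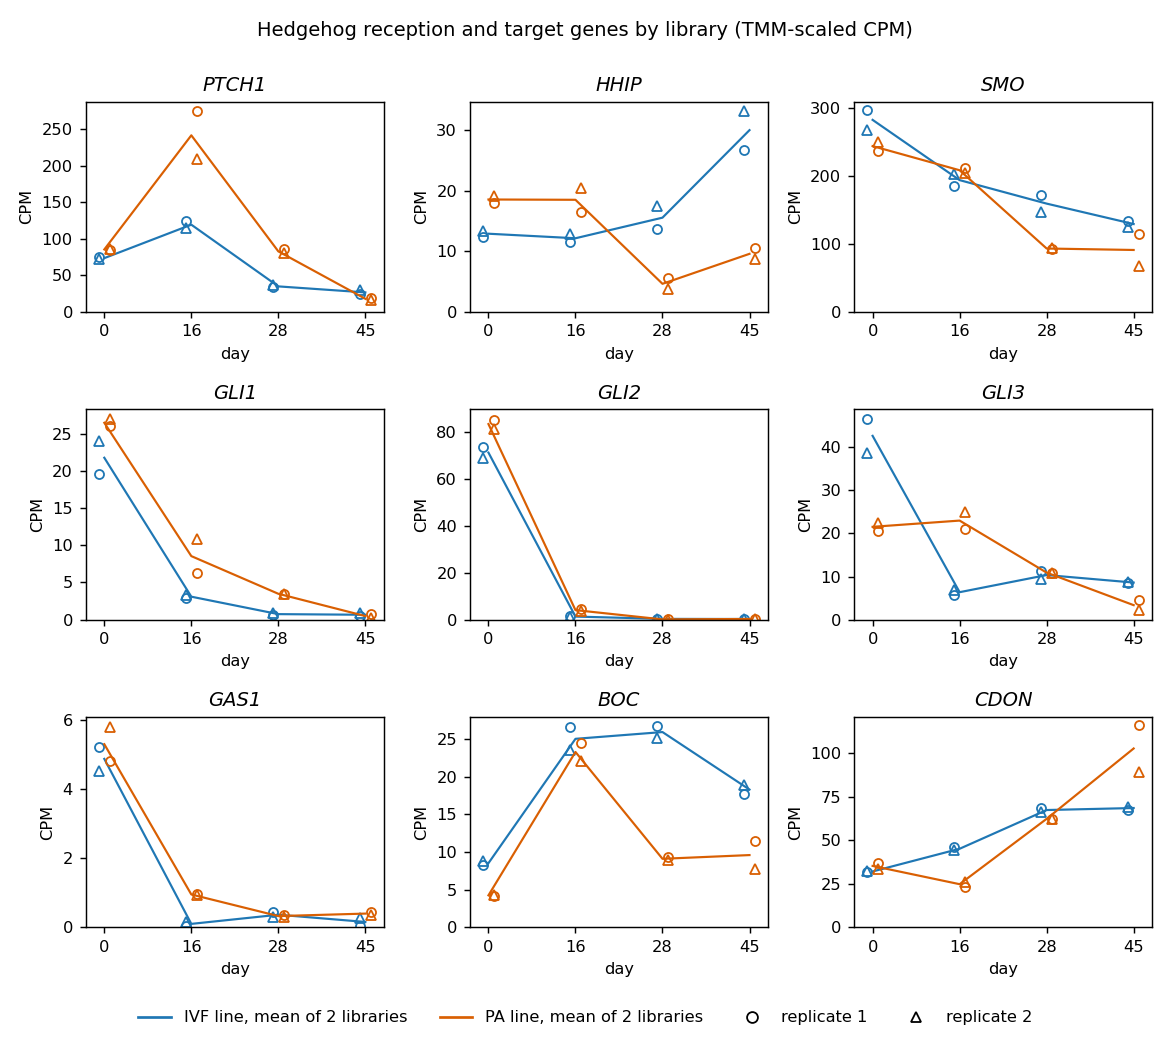
Level of each Hedgehog gene in every library, in TMM-scaled CPM from 0, against the day of differentiation (days evenly spaced), with lines through the means of 2 libraries. GLI1, GLI2 and GAS1 are highest at day 0 in both lines, PTCH1 peaks at day 16 and CDON has its highest mean at day 45.

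PTCH1 (chr10:26627165-26703225, forward strand, Sscrofa11.1) encodes the receptor and is a standard readout of pathway activity. In the IVF line its libraries stood at 74.9 and 72.4 CPM on day 0, 124 and 115 on day 16, 33.6 and 36.2 on day 28 and 23.8 and 29.5 on day 45. In the PA line the values were 84.6 and 86.5, 275 and 209, 85.5 and 80.3, and 19.1 and 16.7 CPM. Both lines thus peaked at day 16 and ended below the stem cells, with no overlap between the libraries of successive days in either line. The rise to day 16 was 1.5 ± 0.14 (log2 fold change ± SE, adjusted p = 3.5e-07) in the PA line and 0.69 ± 0.13 (adjusted p = 0.000438) in the IVF line, where the 1.62-fold change missed the 2-fold minimum. The difference between these rises was 0.81 ± 0.19 (adjusted p = 0.0132) and also under 2-fold. PTCH1 then fell in both lines by day 28, by 1.77 ± 0.14 in IVF and 1.55 ± 0.14 in PA on the log2 scale. Only the PA line was called again by day 45 (-2.21 ± 0.14, against -0.39 ± 0.14 in IVF), and this difference of the last step was itself called (-1.82 ± 0.19, adjusted p = 2.64e-05). Between the lines, PTCH1 was higher in PA at day 16 (1.02 ± 0.13, adjusted p = 0.000103) and day 28 (1.25 ± 0.14, adjusted p = 9.18e-06). The day 16 call sat at the 2-fold border, and 4 alternatives took it to 0.79 to 0.97.

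PTCH1 was also the only one of the 9 genes with the full 9-base GLI recognition motif, GACCACCCA, near an annotated start. Windows from 1000 bases before to 200 bases after a start were searched on both strands of Sscrofa11.1, at the gene's first base for all 19560 protein-coding genes, of which 0.91% held it, and at every annotated transcript start for the 9. The 7-base core, ACCACCC, which lies inside the longer motif, was in 17% of the windows. The stretches with a match are shown because PTCH1 and GLI1 are the 2 genes on which the results below turn, and GLI2 because it fell most, with the match in capitals. The PTCH1 match lies at chr10:26627256-26627284 (forward strand) in the untranslated part of the first exon, 101 bases after the first base of the gene. Of the 7 annotated PTCH1 transcripts, only 1 starts there, at base 26627165. The others start at bases 26635759 to 26638390, and their windows held no match. The GLI1 stretches lie on chromosome 5, forward strand, at chr5:22735369-22735397 upstream of the gene and at chr5:22736541-22736569 in an untranslated exon, and the GLI2 stretch at chr15:30580173-30580201 (reverse strand) in an untranslated exon. Each is written along the strand of its gene, and GGGTGGT is the core read on the opposite strand.
PTCH1: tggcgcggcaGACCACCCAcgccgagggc
GLI1, upstream: gacccaaggagGGGTGGTtcttggaaact
GLI1, exon: gcgcttctcgcGGGTGGTcccggctcgcg
GLI2, exon: ggccctagagaGGGTGGTggccccccatg
GLI1 held the core at 2 further places, both in introns, and GAS1 at 1 place, at -904 from its first base. No core match was found in the windows of SMO, HHIP, GLI3, BOC or CDON. A match describes letters only, and binding was not measured.

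HHIP (chr8:83583735-83678368, reverse strand) encodes a membrane protein that binds Hedgehog ligands and keeps them from the receptor. Its IVF libraries stood at 12.4 and 13.4 CPM on day 0, 11.5 and 12.8 on day 16, 13.7 and 17.4 on day 28 and 26.8 and 33.2 on day 45. The PA libraries held 18.0 and 19.1, 16.5 and 20.5, 5.52 and 3.74, and 10.5 and 8.66 CPM. Day 0 and day 16 overlapped in both lines, with log2 fold changes of -0.08 ± 0.20 in IVF and -0.01 ± 0.19 in PA. In the PA line it fell from day 16 to day 28 (-1.99 ± 0.21, adjusted p = 1.22e-06), whereas the IVF value was 0.36 ± 0.19, and the difference of these steps was called (-2.35 ± 0.28, adjusted p = 4.08e-05). From day 28 to day 45 the change was 0.95 ± 0.19 in IVF and 1.05 ± 0.20 in PA, of which only the PA value was called. That call was lost without PA replicate 1 of day 45 (0.90) or PA replicate 2 of day 28 (0.79), and IVF was called without replicate 2 of day 28 (1.13) or replicate 1 of day 45 (1.09). HHIP was lower in PA at day 28 (-1.75 ± 0.20) and at day 45 (-1.65 ± 0.20, adjusted p = 3.28e-05). At day 45 it was above day 0 in the IVF line (1.22 ± 0.20), and the PA value was -0.95 ± 0.20, or -1.1 and called without PA replicate 1 of day 45. An opposite-strand gene of unnamed function (LOC100525237) overlaps 451 exon bases of HHIP, and since the strand setting of the counting is not given, its reads cannot be told apart there.

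SMO (chr18:19450730-19478796, reverse strand) encodes the membrane protein that passes the signal on once PTCH1 is bound. It was the most abundant of the 9 transcripts per length in every group, from 155 ± 11.3 TPM (SD, n = 2) in IVF stem cells to 61.9 ± 17.5 TPM in the PA line at day 45, and exceeded the next gene 1.79- to 7.95-fold. In CPM the IVF libraries went from 297 and 267 on day 0 through 185 and 202 and then 172 and 146 to 133 and 125 on day 45. The PA libraries held 237 and 250, 212 and 204, 92.6 and 93.5, and 115 and 66.8 CPM. SMO was thus lower at the end than at the start in both lines (-1.13 ± 0.18 in IVF, -1.42 ± 0.18 in PA). No single step was called in IVF, and 1 was in PA, from day 16 to day 28 (-1.16 ± 0.18, adjusted p = 6.36e-05). On the TPM scale all 3 of these calls missed the 2-fold minimum (-0.95, -0.98 and -0.75), and the median of all genes there moved up by 0.142, 0.423 and 0.335. SMO did not differ past the call between the lines on any day, the largest value being -0.77 ± 0.18 at day 28.

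GLI1 (chr5:22736325-22747421, forward strand) encodes an activator that is itself a direct target of the pathway. Its IVF libraries held 19.5 and 24.0 CPM on day 0, 2.84 and 3.30 on day 16, 0.634 and 0.815 on day 28 and 0.458 and 0.820 on day 45. The PA libraries held 26.0 and 26.9, 6.25 and 10.8, 3.49 and 3.43, and 0.729 and 0.199 CPM. Stem cells of both lines were highest, and the libraries of successive days did not overlap except for days 28 and 45 of the IVF line. From day 0 to day 16 GLI1 fell by 2.82 ± 0.34 in IVF (adjusted p = 6.14e-06) and by 1.63 ± 0.32 in PA (adjusted p = 0.000505), and the difference of 1.19 ± 0.45 was not called (adjusted p = 0.118), although 4 alternatives called it. It was higher in PA at day 16 (1.47 ± 0.33, adjusted p = 0.00641) and day 28 (2.25 ± 0.39, adjusted p = 0.000383). The 2 PA libraries of day 16 differed (275 and 516 counts). Without replicate 2 the day 16 difference was 1.02 and the PA fall to day 28 was -0.85 in place of -1.30 ± 0.33, and both calls were lost. The day 16 call was also lost without IVF replicate 1 of day 16 (1.37). By limma on TPM both were lost as well, at 1.09 (adjusted p = 0.0698) and -0.7 (adjusted p = 0.154). The last step was called in PA only (-2.91 ± 0.42), with a called difference from IVF (-2.74 ± 0.62, adjusted p = 0.00427), and the PA libraries of day 45 held 34 and 10 counts. Without the first of them, GLI1 was lower in PA at day 45 (-1.68, adjusted p = 0.0272), where the value was otherwise -0.49 ± 0.48.

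PTCH1 and GLI1, both commonly read as target genes, moved apart between day 0 and day 16. The ratio of PTCH1 to GLI1 in TPM was 1.79 to 2.36 in the 4 day 0 libraries, 12.8 to 28.8 at day 16, 12.8 to 34.5 at day 28 and 15.2 to 58.8 at day 45. The day 0 libraries did not overlap with any later ones. Part of the GLI1 gene (76 exon bases) lies inside the opposite-strand gene ARHGAP9.

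GLI2 (chr15:30312528-30580272, reverse strand) encodes the factor that acts mainly as an activator when the pathway is on in the mouse. Its IVF libraries went from 73.6 and 69.1 CPM on day 0 to 1.31 and 1.21 on day 16, 0.436 and 0.122 on day 28 and 0.218 and 0.220 on day 45. The PA libraries went from 85.5 and 81.6 to 4.34 and 3.70, to 0.0997 and 0, and to 0.300 and 0.179 CPM. Every library after day 0 was far below every stem cell library. The fall to day 16 had the largest estimate of the 9 genes in each line, -5.82 ± 0.29 in IVF (adjusted p = 8.79e-10) and -4.38 ± 0.26 in PA (adjusted p = 5.94e-09). GLI2 stood higher in PA at day 16 (1.66 ± 0.28, adjusted p = 0.000902). The smaller fall in PA was called as a difference of the steps (1.44 ± 0.36, adjusted p = 0.0201), but this call was lost in 8 alternatives, with values of 1.23 to 1.5. GLI2 fell again to day 28, with -2.16 ± 0.40 in IVF and -6.20 ± 0.48 in PA (adjusted p = 7.79e-08), and a called difference of -4.04 ± 0.77 (adjusted p = 0.00142). The size of these PA values is uncertain: without PA replicate 2 of day 28 they were -5.29 and -3.13, on TPM -3.26 and -1.92, and without replicate 1 only a library at 0 counts remained, for which no fold is given. The IVF libraries of day 28 held 22 and 6 counts, and without the first of them the difference was -2.86. From day 28 on GLI2 was near the detection limit, with 0 to 22 counts a library, where 3 counts correspond to 0.0594 to 0.0815 CPM. There the PA libraries of day 28 held 5 and 0 counts, and the PA rise to day 45 (2.13 ± 0.77, adjusted p = 0.0356) and the lower level than IVF at day 28 (-2.37 ± 0.74, adjusted p = 0.0195) were each lost in 4 alternatives, among them leaving out PA replicate 2 of day 28 (1.23 and -1.47). The difference of the last step was 2.49 ± 0.95 (adjusted p = 0.0608) and was called in 6 alternatives, among them DESeq2 (2.52, adjusted p = 0.0121), total counts (2.6) and no filter on low counts (2.5).

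GLI3 (chr18:52403463-52697906, forward strand) encodes the factor that supplies most of the repressor form in the mouse neural tube, and it was the only one of the 9 whose step differed between the lines by a call over all 3 steps. Its IVF libraries held 46.6 and 38.8 CPM on day 0, 5.79 and 6.92 on day 16, 11.3 and 9.38 on day 28 and 8.46 and 8.72 on day 45. The PA libraries held 20.6 and 22.5, 21.1 and 24.9, 10.9 and 10.9, and 4.57 and 2.11 CPM. In the stem cells GLI3 stood lower in PA (-0.98 ± 0.24, adjusted p = 0.0118), just short of 2-fold, and 4 alternatives called it. In IVF the fall came before day 16 (-2.75 ± 0.25, adjusted p = 4.16e-07), whereas in PA days 0 and 16 overlapped (0.09 ± 0.23). The difference of these steps was 2.84 ± 0.34 (adjusted p = 0.000124), and at day 16 GLI3 was higher in PA by 1.86 ± 0.25 (adjusted p = 0.000123). The PA line fell later, by 1.08 ± 0.24 to day 28 and by 1.71 ± 0.26 to day 45, and both steps differed from those of IVF (-1.78 ± 0.34 and -1.44 ± 0.35). The fall to day 28 was past the 2-fold minimum by little and was lost in 6 alternatives, at -0.63 to -0.99. At day 45 GLI3 was lower in PA (-1.37 ± 0.26, adjusted p = 0.000942), and without PA replicate 2 of day 45 this was -0.91 and no longer called, nor was the difference of the last step (-0.99).

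**Figure D2:**
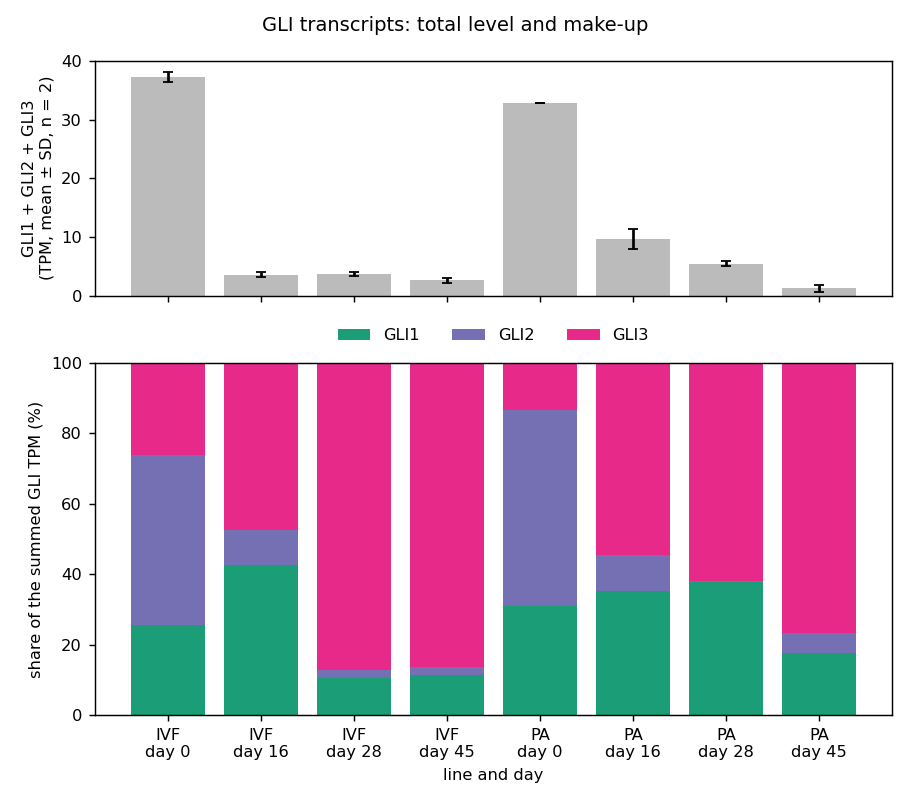
Summed level of the 3 GLI transcripts in TPM (upper panel, mean ± SD of 2 libraries) and the share of that sum from each (lower panel, mean percent), by line and day. The sum is 37.3 and 32.9 TPM in the stem cells and 9.72 TPM or less in every later group, and from day 0 to day 28 the GLI2 share shrinks and the GLI3 share grows in both lines.

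On the TPM scale the 3 GLI transcripts together fell from 37.3 ± 0.873 in IVF stem cells to 3.60 ± 0.450 at day 16, 3.66 ± 0.384 at day 28 and 2.59 ± 0.367 at day 45 (SD, n = 2). In PA they went from 32.9 ± 0.0354 to 9.72 ± 1.72, 5.43 ± 0.403 and 1.24 ± 0.640. Their make-up changed with the level. GLI2 gave 48.2% of the sum in IVF stem cells and 55.6% in PA stem cells, and 9.85% and 10.3% at day 16. GLI3 gave 26.2% in IVF and 13.4% in PA stem cells, and 86.4% and 76.8% at day 45. At day 28 GLI1 gave 10.6% ± 2.52 in IVF and 37.9% ± 4.57 in PA, where GLI3 gave 87.1% ± 0.71 and 61.9% ± 4.90. These shares are of transcripts and say nothing of activator and repressor proteins.

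The co-receptors GAS1, BOC and CDON are surface proteins that bind Hedgehog ligands together with PTCH1 and are partly redundant in the mouse embryo. GAS1 (chr10:28509168-28511554, forward strand) followed GLI2 over the 8 group means (Pearson's r = 0.98 of log2(CPM+1), a description over groups that share the stem cell libraries). Its IVF libraries held 5.22 and 4.52 CPM on day 0, 0.0424 and 0.149 on day 16, 0.436 and 0.285 on day 28 and 0.0436 and 0.260 on day 45. The PA libraries held 4.80 and 5.79, 0.954 and 0.939, 0.359 and 0.284, and 0.429 and 0.358 CPM. The stem cells stood apart from all later libraries in both lines. GAS1 fell to day 16 in IVF (-5.63 ± 0.55, adjusted p = 7.5e-07) and in PA (-2.48 ± 0.42, adjusted p = 0.000145), with a difference of 3.15 ± 0.70 (adjusted p = 0.0103). It was higher in PA at day 16 (3.27 ± 0.58, adjusted p = 0.00116). The IVF values there rest on 2 and 7 counts, and without the first of these libraries the difference of the falls was 2.52 (adjusted p = 0.0732). Later calls rest on few counts as well. The IVF value from day 16 to day 28 was 1.89 ± 0.63 (adjusted p = 0.0239, 0.086 with only the compared libraries). This call was also lost without IVF replicate 1 of day 16 (1.26) or of day 28 (1.55). The PA value was -1.55 ± 0.48, and its call was lost without PA replicate 2 of day 28 (-1.39) and on TPM (-0.97). The difference of the PA and IVF values was -3.43 ± 0.79 (adjusted p = 0.00503). At day 45 the IVF libraries held 2 and 13 counts, and without the second the PA line was higher by 3.11 (adjusted p = 0.007) in place of 1.33 ± 0.57, and the IVF value from day 28 was -2.94 and called in place of -1.21 ± 0.58.

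BOC (chr13:146625218-146703165, reverse strand) rose to day 16 while GAS1 fell. Its IVF libraries went from 8.23 and 8.80 CPM on day 0 to 26.6 and 23.5 on day 16, 26.8 and 25.1 on day 28 and 17.7 and 18.9 on day 45. The PA libraries went from 4.20 and 4.27 to 24.5 and 22.1, then 9.27 and 8.92, and 11.4 and 7.78 CPM. All libraries after day 0 lay above those of day 0 in the same line. The rise to day 16 was 1.56 ± 0.16 in IVF (adjusted p = 1.65e-06) and 2.46 ± 0.17 in PA (adjusted p = 2.66e-08), reaching levels that overlapped between the lines. From day 16 to day 28 the value was 0.05 ± 0.16 in IVF, and BOC fell in PA (-1.36 ± 0.16, or -0.94 and not called on TPM), with a difference of -1.41 ± 0.23 (adjusted p = 0.000395), and it was lower in PA at day 28 (-1.51 ± 0.16). It was called between the stem cells of the lines, where GLI3 fell just short, lower in PA by 1.01 ± 0.17 (adjusted p = 0.00128), a value at the 2-fold border that 4 alternatives took to between -0.96 and -1.0. At day 45 BOC was above day 0 in both lines (1.10 ± 0.16 and 1.18 ± 0.17), the second of which was 0.88 without PA replicate 1 of day 45. The opposite-strand gene CFAP44 covers 3318 exon bases of BOC, so part of its counts may belong to that gene.

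CDON (chr9:53079543-53178881, reverse strand) encodes the closest relative of BOC, and its highest levels came later. Its IVF libraries held 31.7 and 32.3 CPM on day 0, 46.0 and 44.1 on day 16, 68.5 and 66.1 on day 28 and 67.6 and 69.3 on day 45. The PA libraries held 37.0 and 33.4, 23.2 and 26.2, 62.4 and 62.1, and 116 and 89.3 CPM. IVF climbed to day 28 and then overlapped, while PA dipped at day 16 and was highest at day 45. From day 0 to day 16 the values were 0.49 ± 0.12 in IVF and -0.51 ± 0.12 in PA, neither reaching 2-fold, and their difference of -1.0 ± 0.17 (adjusted p = 0.00177) lay on the 2-fold border, with 4 alternatives giving -0.92 to -0.99. CDON rose in PA from day 16 to day 28 (1.33 ± 0.12, adjusted p = 3.71e-07), where the IVF value was 0.58 ± 0.12. Over the whole course it rose by 1.10 ± 0.12 in IVF and by 1.55 ± 0.12 in PA (adjusted p = 3.81e-08). Per length CDON was the second most abundant of the 9 transcripts at day 45, with 20.9 ± 1.84 TPM in IVF and 34.1 ± 3.07 TPM in PA (SD, n = 2). Over the 8 group means CDON ran against PTCH1 (r = -0.88), SMO (-0.85), GLI1 (-0.84) and GLI3 (-0.84), again as a description.

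**Figure D3:**
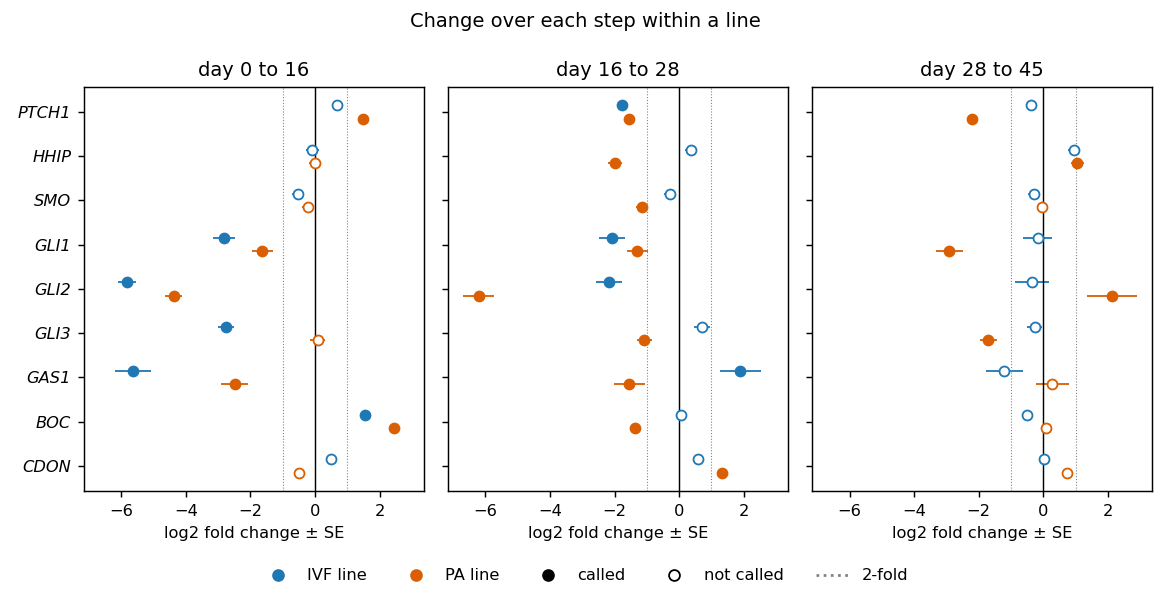
Log2 fold change ± SE of each Hedgehog gene over each step, by line, from the edgeR fit, with called changes filled and 2-fold marked by dotted lines. GLI2 and GAS1 have the largest falls to day 16 in IVF, and from day 16 to day 28 all 9 PA points are filled, 8 left of 0 and CDON right of it.

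The lines were compared at each day. In the stem cells 1 of the 9 genes differed (6.61% of all tested genes), at day 16 5 did (9.08%), all higher in PA against 3.5% of all genes, at day 28 5 did (17.1%) and at day 45 2 did (13.9%). The 5 at day 16 were PTCH1, GLI1, GLI2, GLI3 and GAS1, whereas SMO was at 0.10 ± 0.18, BOC at -0.10 ± 0.16 and CDON at -0.87 ± 0.12. At day 28 PTCH1 and GLI1 were higher in PA and GLI2, HHIP and BOC lower. At day 45 GLI3 and HHIP were lower. At day 16, 5 markers of dividing cells summed to 2160 to 2290 CPM in PA and 1810 to 1850 in IVF, with 0 of them called. The sums of 3 forebrain and hypothalamus markers were 223 to 230 against 45.9 to 51.8, with 3 called higher in PA. Those of 4 floor plate markers were 202 to 215 against 601 to 640, with 3 called lower and 1 not called. At day 28 the neuron markers summed to 3580 to 3620 CPM in PA and 1570 to 2120 in IVF, with 1 of 3 called, higher in PA. The forebrain and hypothalamus markers summed to 193 to 210 against 19.4 to 27.1, with 2 called higher and 1 lower. The floor plate markers summed to 300 to 335 against 459 to 501, with 2 called lower and 2 not called. No marker of these lists was at 0 in both libraries of these groups, and the part of these differences in the results was not tested. The step itself differed between the lines for 4 genes from day 0 to day 16 (6.84%), for 5 from day 16 to day 28 (15.2%), each more negative in PA against 5.35% of all genes, and for 3 from day 28 to day 45 (15.8%).

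**Figure D4:**
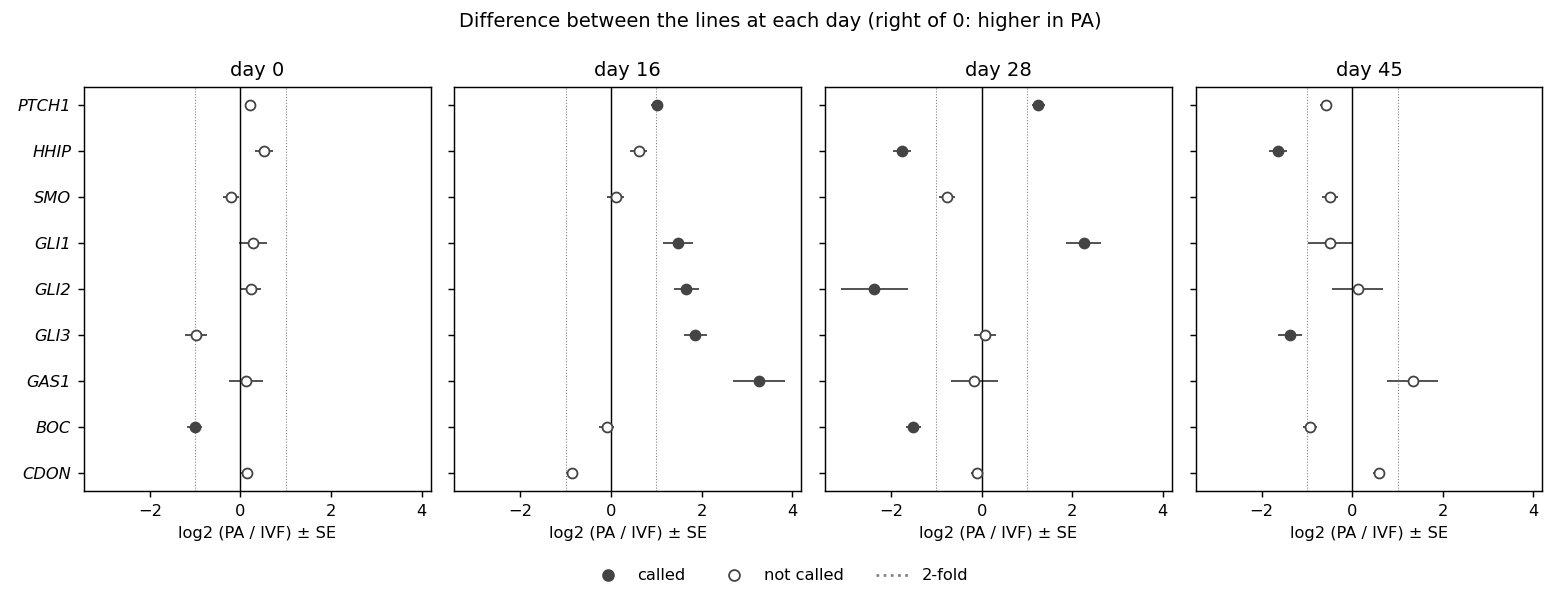
Log2 ratio of PA to IVF ± SE for each Hedgehog gene at each day, from the edgeR fit, with called differences filled and 2-fold marked by dotted lines. At day 16 the filled points of PTCH1, GLI1, GLI2, GLI3 and GAS1 all lie right of 0, and by day 45 only GLI3 and HHIP are filled, both left of 0.

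The transcript of the ligand itself was measured in the cells. SHH held 8 and 10 counts (0.217 and 0.264 CPM) in the IVF stem cells and 56 and 81 counts (1.28 and 1.71 CPM) in the PA stem cells. At day 16 it stood at 161 and 125 CPM in IVF and at 117 and 107 CPM in PA, which did not differ past the call (-0.35 ± 0.16, adjusted p = 0.134). SHH was called higher in PA at day 0 (2.62 ± 0.35, adjusted p = 0.000171) and lower in PA at day 28 (-1.12 ± 0.16, adjusted p = 8.05e-05), with 120 and 94.5 CPM in IVF and 52.0 and 46.5 CPM in PA on day 28. By day 45 the levels were 46.7 and 59.0 CPM and 39.7 and 36.4 CPM, lower than at day 16 in every library. Of 7 tested ligand and ligand release genes, 4 rose to day 16 in IVF and 5 in PA and 0 fell, with a median of 1.23 and 1.35 (log2 fold change) beside 0 over all genes. Over this step 34.2% of all tested genes were called in IVF (20.2% higher, 14% lower) and 32.4% in PA (18% higher, 14.4% lower), which is the background for this and the following lists. SCUBE2 and SCUBE1, which encode secreted proteins that help to release lipid-bound ligand, rose in IVF by 3.08 ± 0.17 and 2.03 ± 0.21 and in PA by 2.20 ± 0.16 and 1.77 ± 0.21. HHAT, which adds a lipid to the ligand, rose in both lines. Its rise was 1.23 ± 0.19 in IVF, and in PA it went from 5.42 ± 0.316 to 13.8 ± 0.364 CPM (SD, n = 2).

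Of 14 genes of the primary cilium and signal transduction, which act between SMO and the GLI proteins, 1 rose and 1 fell to day 16 in each line against 34.2% and 32.4% of all genes called, with medians of 0.01 in IVF and -0.16 in PA beside 0 over all genes. STK36, a kinase of the pathway, rose by 1.97 ± 0.12 and 2.14 ± 0.12, and EVC2, which binds SMO in the cilium, fell by 1.70 ± 0.22 and 1.69 ± 0.22. SUFU, which holds GLI proteins in the cytoplasm, stood at 66.4 ± 0.898 and 67.0 ± 0.314 CPM in IVF and at 66.6 ± 2.12 and 58.7 ± 2.29 CPM in PA on days 0 and 16 (SD, n = 2). Of 13 kinases, ubiquitin ligases and their partners, only PRKACB, a catalytic subunit of protein kinase A, was called, higher in IVF (1.46 ± 0.17) and in PA (1.34 ± 0.17), and the medians were 0.16 and 0.14.

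Among 6 further surface proteins that bind Hedgehog ligands, 0 rose and 1 fell in IVF and 3 rose and 1 fell in PA, against 20.2% higher and 14% lower of all genes in IVF and 18% and 14.4% in PA. The medians were 0.44 and 1.09 beside 0. The glypican gene GPC3, whose product competes with PTCH1 for ligand in the mouse, went from 45.2 ± 0.625 to 507 ± 7.33 CPM in PA and from 29.8 ± 3.76 to 27.8 ± 0.721 CPM in IVF, and was thus 18.2-fold higher in PA at day 16 (4.19 ± 0.14, adjusted p = 4.52e-10). GPC4 fell in both (-1.66 ± 0.13 and -2.07 ± 0.13).

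Most of the ventral neural genes known to depend on Hedgehog rose. Of 8 tested, 7 rose and 1 fell in IVF and 5 rose and 2 fell in PA between day 0 and day 16, with medians of 7.04 and 4.92 beside 0 over all genes. NKX2-2, at 0 counts in all stem cell libraries, reached 14.3 CPM in IVF and 11.5 CPM in PA, at least 178-fold and 174-fold above 3 counts per library. NKX2-1, a gene of the ventral forebrain, reached 48.6 ± 4.13 CPM in IVF and 218 ± 4.39 CPM in PA. FOXA2, the floor plate factor, went from 4.38 ± 2.96 to 82.6 ± 6.17 CPM in IVF and from 28.2 ± 1.45 to 14.0 ± 2.07 CPM in PA, and was lower in PA at day 16 (-2.56 ± 0.32, adjusted p = 6.81e-05). The genes that fell were NKX2-8 in both lines and FOXA2 in PA, named after their values were seen. NKX2-8 was near the floor, from 24 to 0 counts over both libraries in IVF and from 64 to 17 in PA. Between the lines at day 16, 3 of the 8 ventral genes were called higher in PA and 3 lower, against 3.5% and 5.59% of all genes. FOXA1 (-2.03 ± 0.13) and NKX6-1 (-2.03 ± 0.29) were lower in PA, like FOXA2. NKX2-1 was higher (2.17 ± 0.15), and OLIG2 stood at 40 ± 1.89 CPM in PA against 15.5 ± 0.463 in IVF. The other gene called higher in PA was NKX2-8, which rests on 17 counts in PA against 0 in IVF. PTCH1, GLI1, GLI2, GLI3 and GAS1 were thus higher at day 16 in a line whose ventral genes differed in both directions.

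Of 11 tested genes induced by Hedgehog in several tissues, 7 rose and 2 fell in IVF (34.2% of all genes called) and 3 rose and 1 fell in PA (32.4%), with medians of 1.68 and 0.96 beside 0. Some of this list lay near the floor. In IVF, FOXF2, FOXC2 and FOXL1 went from 0 counts at day 0 to 0.467, 0.478 and 0.244 CPM at day 16. FOXF2 went from 0 counts to 0.118 CPM in PA, and GREM1 stood at 0 counts at day 16 in both lines. CCND1, the cyclin gene, rose by 1.5 ± 0.10 and 1.94 ± 0.10, and SFRP1, a Wnt inhibitor gene, fell in IVF (-1.88 ± 0.29) and was higher in PA at day 16 (1.46 ± 0.28, adjusted p = 0.00221). HSD11B1, an enzyme gene of glucocorticoid activation, went the other way, with a rise in IVF (2.55 ± 0.38) and a lower level in PA at day 16 (-2.6 ± 0.37, adjusted p = 0.00023), at 1.11 ± 0.38 against 6.77 ± 0.965 CPM. Of 7 tested dorsal and intermediate neural tube genes, which Hedgehog represses, 2 rose and 2 fell in IVF (34.2% of all genes called) and 4 rose and 1 fell in PA (32.4%), with medians of 0.75 and 2.78 beside 0. PAX6, a factor of the intermediate and dorsal neural tube, fell in IVF from 14.6 ± 7.44 to 3.79 ± 0.266 CPM and rose in PA from 0.0457 ± 0.0646 CPM (4 counts in all) to 9.11 ± 0.636 CPM, with a called difference of the steps (9.55 ± 0.83, adjusted p = 9.41e-06). IRX3 fell in PA (-1.71 ± 0.32), DBX2 fell in IVF, from 133 to 4 counts over both libraries, and GDF7 rose in both lines, from 3 to 104 counts in IVF and from 4 to 193 in PA. DBX1 reached 131 ± 4.06 CPM in IVF and 346 ± 12.9 CPM in PA at day 16 and had fallen to 1.42 ± 0.0576 and 0.498 ± 0.114 CPM by day 45. In IVF it was then still above day 0 (3.88 ± 0.49, adjusted p = 5.64e-06).

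The genes with the pattern most like that of PTCH1 over the 8 group means, among 12585 named genes with at least 5 CPM in their highest group, were XYLT1 (Pearson's r = 0.987), HACE1 (0.98), RHOU (0.977), MVK (0.969) and RNF34 (0.968). For GLI1 they were FST (0.992), POP7 (0.988), PRR5L (0.987), CACHD1 (0.987) and PTGIS (0.984). For GLI3 the likeness was lower, with SMURF2 (0.931), ALG6 (0.916), ZNF329 (0.901), EZH1 (0.9) and HINFP (0.9). GLI1 itself was at 0.66 to PTCH1 and at 0.92 to GLI2. All of these share the same 16 libraries, and each is a description over 8 points.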

How the data were processed

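Poly-A RNA was sequenced by the authors from stranded libraries of the IVF and PA lines. Per the labels and the study's methods, the authors used Trimmomatic 0.38 for trimming, HISAT2 2.1.0 for alignment (genome Sscrofa11.1), SAMtools 1.9 for sorting and StringTie 2.1.3b for quantification. The strand setting is not given in the sources used here. The deposited counts are whole reads per gene, unscaled. The TPM values deposited by the authors were used for levels between genes and for 1 alternative fit. The deposited FPKM values were not used here.

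Counts were read into R 4.3.3 (package data.table, version 1.17.8). After filterByExpr of edgeR 4.0.16 had kept 18528 genes, TMM factors were computed and the quasi-likelihood fit used 8 group means in the 16 libraries together (8 residual degrees of freedom). P-values were Benjamini-Hochberg adjusted over all genes of a comparison, and a call needed an adjusted p below 0.05 and a 2-fold change. The SE is the size of the log2 fold change divided by the square root of F. Comparisons were successive days and day 45 with day 0 within a line, the lines at each day, and the difference of the steps between the lines. Replicates differed by more than counting noise (median chi-square 1.79 to 14 by group, against 0.455 for counting alone). The highest value was that of PA at day 45, and the pooled fit gives no group a spread of its own. The model was tested on simulated counts. Alternatives were RLE, upper quartile and total-count scaling, other filters (none, or 1 CPM in 2 libraries), no fold minimum, a replicate block, only the compared libraries, DESeq2 1.42.0 (also with the criterion of the study, a raw p and no 0 count), limma 3.58.1 on log2(TPM + 0.1), and each library left out. Levels of a gene at 0 were bounded by 3 counts per library. Members and lists were chosen with earlier results of these data known. Every Hedgehog gene is named. From each other list up to 4 tested genes with the smallest adjusted p are named, and others with their values. A single gene of these lists is not reported here. The genes most like PTCH1, GLI1 and GLI3 are the 5 with the highest r. Motifs and positions come from the RefSeq genome and annotation of Sscrofa11.1. Python 3.11.15 and matplotlib 3.10.9 made the figures.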

Additional observations from a re-analysis of the deposited data

Results flagged for a closer look

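The test of the difference between the PA step and the IVF step (log2, PA minus IVF, edgeR quasi-likelihood with Benjamini-Hochberg adjustment) passed for 12 of 27 pairs of a Hedgehog gene and a step. Of all tested genes 6.84% passed for the first step, 15.2% for the middle step and 15.8% for the last. From day 0 to day 16 it was 1.44 ± 0.36 (SE) for GLI2, 2.84 ± 0.34 for GLI3 and 3.15 ± 0.70 for GAS1, which fell less or not in PA, and -1.0 ± 0.17 for CDON. From day 16 to day 28 it was -4.04 ± 0.77 for GLI2, -1.78 ± 0.34 for GLI3, -2.35 ± 0.28 for HHIP, -3.43 ± 0.79 for GAS1 and -1.41 ± 0.23 for BOC, each more negative in PA. From day 28 to day 45 it was -1.82 ± 0.19 for PTCH1, -2.74 ± 0.62 for GLI1 and -1.44 ± 0.35 for GLI3, again more negative in PA. GLI3 was the only gene to pass in all 3 steps. The GLI2 value of the middle step rests on 5 and 0 counts in PA and on 22 and 6 counts in IVF at day 28. The GAS1 values rest on 2 and 7 counts in IVF at day 16. In the first step the GLI2 call was lost in 8 alternatives, the CDON call in 4 and the GAS1 call in 1. The GLI3 call of the last step was lost without PA replicate 2 of day 45. The cause of these differences was not tested.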

How the results depend on the processing

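Of 70 calls among 135 tests of Hedgehog genes, 50 were kept in every alternative that tested them and 20 were lost in at least 1 of 27. The calls numbered 28 over the steps, 17 for day 45 against day 0, 13 between the lines and 12 for the differences of the steps. Leaving out each library in turn gave 25 to 29, 17 to 17, 12 to 15 and 9 to 13. Without a fold minimum the calls between the lines were 21. DESeq2 with the criterion of the study tested 8 of the 9 genes, as GLI2 had a library at 0. The replicate number as a block gave 28, 17, 13 and 12 and changed no call. Samples with the same number did not deviate together (r of -0.19 to 0.28 over 28 pairs of groups, median 0.033), so the numbers were not taken as pairing.

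Values with a changed sign were called in neither fit. With total counts, HHIP was 0.03 (IVF) and 0.09 (PA) from day 0 to 16 and CDON -0.05 from day 28 to 45 in IVF, and SMO was 0.01 for PA day 45 against 28 with upper quartile scaling. On TPM, HHIP was 0.15 and 0.20, CDON -0.22, BOC -0.02 (PA, day 45 against 28), and PA against IVF gave GAS1 -0.04 and CDON -0.03 at day 0 and SMO -0.11 at day 16. With 1 library left out the ranges were -0.04 to 0.14 for BOC (IVF, day 16 to 28), -0.63 to 0.18 for GLI1 and -0.98 to 0.83 for GLI2 (IVF, day 28 to 45), -0.03 to 0.20 for GLI3 and -0.17 to 0.14 for HHIP (PA, day 0 to 16), and -0.48 to 0.31 for SMO and -0.23 to 0.33 for BOC (PA, day 28 to 45). Between the lines they were -0.01 to 0.26 (GAS1, day 0), -0.05 to 0.22 (GLI3, day 28), -0.43 to 0.17 (GAS1, day 28), -1.68 to 0.18 (GLI1, day 45, called at its lower end, where the sign was kept) and -0.29 to 0.45 (GLI2, day 45). For the differences of the steps they were -0.09 to 0.23 (HHIP, first step), -0.15 to 0.41 (HHIP, last step) and -0.18 to 0.61 (SMO, last step). Total counts moved the median of all genes by 0.118 (IVF, day 16 against 0), 0.23 (PA, day 45 against 0) and 0.116 (difference of the last steps), and TPM by -0.219 to 0.423. The causes were not tested. Depth limits GLI2 from day 28 on, with 0 to 22 counts a library, and GAS1 in IVF from day 16 on, with 2 to 22.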
